A study of Mus musculus with 6 samples.

Results

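Integrin subunits and the proteins that tie them to actin at focal adhesions were examined as 42 genes, picked by symbol. Earlier results of these data were known when the genes were chosen. They are 12 α subunits, 8 β subunits, 12 linkers to actin, 5 genes of the complex of integrin-linked kinase, PINCH and parvin, and 5 kinases, adaptors and scaffolds. All 42 were found among the 29955 gene names of the deposited table. Genes whose mean over the 6 libraries reached 1 FPKM were tested, 11816 in all, and 31 of the 42 were among them. FPKM scales the fragments of a gene by its transcript length and by the size of the library, so levels of different genes can be compared.

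Integrins are the receptors that hold a cell to its matrix. Each is an α and a β subunit, and the pair decides which matrix protein is bound. On the inside, talins and kindlins bind the β tail, and vinculin, the filamins and the α-actinins carry the load to actin. Focal adhesion kinase, Src, paxillin and p130Cas turn that load into signals. In vessels, laminin receptors tie the endothelium to its basement membrane, and the fibronectin and αv receptors serve migration and remodelling. The αv integrins also free TGF-β from its latent complex.

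MS-1 is an endothelial cell line from mouse, so all groups share a single line. Cells carried a locked nucleic acid (LNA) inhibitor, which was a negative control (NC), an inhibitor of miR-31 or an inhibitor of miR-27. Each transfection was kept for 72 hours without TGF-β2 or with it at 1 ng/ml, and 1 library was made per condition, 6 in all. The 3 transfections stand in for replicates of the TGF-β2 effect, and the labels do not say that they were separate cultures. The p-values therefore rest on how much the TGF-β2 difference varied between the 3 transfections, moderated with the spread of other genes. That variation holds noise and any dependence of the response on the inhibitor, which cannot be told apart. Endothelial markers were present: Pecam1 ranged from 592.8 to 646.6 FPKM, Cdh5 from 167.2 to 206.5 and Kdr from 35.3 to 68.8, but Vwf was at 0.372 to 0.426 FPKM without TGF-β2. Lists for other cell types each held absent and present genes. Ptprc and Lum were at most 0.0257 and 0.0111 FPKM and Epcam was listed at 0 throughout, whereas Cd68 reached 211 FPKM, Krt18 54.0, Pdgfra 19.3 and Pf4 13.9. The 8 endothelial markers summed to 1224.8 to 1320 FPKM without TGF-β2 and 1398.5 to 1428.3 with it, but single markers went both ways. Emcn (219 to 230, then 382 to 395 FPKM), Eng and Vwf were higher with TGF-β2 in each transfection. Kdr (60.8 to 68.8, then 35.3 to 37.2), Tie1 (110 to 118, then 88.3 to 94.3) and Cdh5 were lower in each. Pecam1 and Tek had no common direction. Each library listed 11680 to 11791 genes at 1 FPKM or more, and the depth behind these values is unknown.

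The inhibitors block microRNAs whose seed, bases 2 to 8, pairs with sites in messenger RNAs. The mature sequences are from RefSeq (GRCm38.p6, chr4:88910614-88910635 minus, chr8:84208727-84208747 plus and chr13:63300760-63300780 plus, in the order shown). The seed is in capitals, because the search for matches in the 3′ UTR used it. The tests of the inhibitors against the NC did not use it. The labels name miR-31 and miR-27 without an arm, and the arms shown are the usual guide strands. miR-27a and miR-27b share their seed.
mmu-miR-31-5p: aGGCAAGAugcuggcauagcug
mmu-miR-27a-3p: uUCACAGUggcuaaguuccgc
mmu-miR-27b-3p: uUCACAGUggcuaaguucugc

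Among the members, Itga5 and Itgb2 hold a match to the miR-31 seed in their 3′ UTR and are discussed below with the inhibitors. The sites are written as in the transcript, on GENCODE vM21 gene models (GRCm38), with the 7 matched bases in capitals. The Itga5 site is at chr15:103344864-103344888 on the minus strand and the Itgb2 site at chr10:77565413-77565437 on the plus strand.
Itga5 site for miR-31: atgcatctttggTCTTGCCagagaa
Itgb2 site for miR-31: cgacctgcacaaTCTTGCCgcagag

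The 5 largest differences with TGF-β2 among the members were in receptor subunits (Itgb5, Itga6, Itgb3, Itgb2 and Itgav). RNA of the β subunits Itgb5, Itgb3 and Itgb1 and of the α subunits Itgav and Itga5 rose, and RNA of the laminin-binding α subunits Itga6, Itga7 and Itga3 and of the leukocyte β subunit Itgb2 fell. All 4 β subunits and 5 of the 7 α subunits tested passed, compared with 8 of 11 actin linkers, 1 of 4 genes of the kinase, PINCH and parvin complex, and 3 of 5 kinases, adaptors and scaffolds. Over all 31, 13 rose and 8 fell, beside 22.7% of all genes tested that rose and 27.5% that fell (50.2% called in either direction). The members' median difference was 0.11 on the log2(FPKM + 1) scale, against -0.02 over all genes tested, and their median absolute difference 0.28 against 0.17. When either negative-control library was left out, 9 rose and 5 fell, where 30.2% of all genes tested were called. Without either miR-27 inhibitor library 10 rose and 6 fell, where 33.1% of all genes were called.

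**Figure D1:**
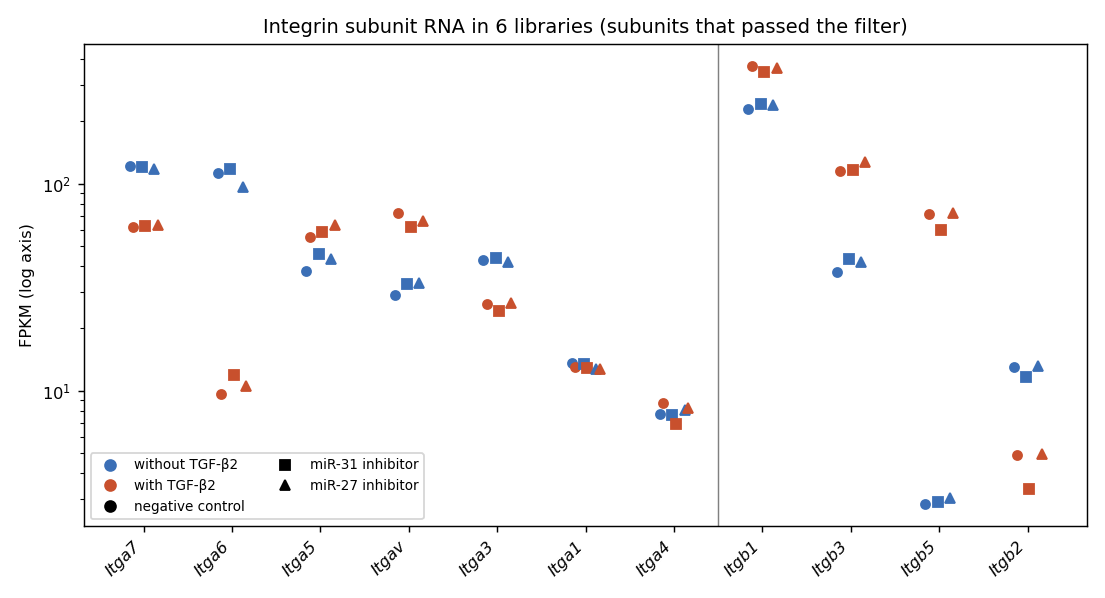
RNA level in FPKM (log axis) of the 7 α subunits (left of the line) and 4 β subunits (right) with a mean of at least 1 FPKM. Each point is 1 library, with the transfection given by the shape and TGF-β2 by the colour. Itgb5 separates most, from 2.83 to 3.03 FPKM without TGF-β2 to 59.6 to 71.7 with it, and Itga6 moves the other way.

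The β5 subunit pairs with αv and binds vitronectin and latent TGF-β. Itgb5 (chromosome 16, 33829751 to 33949424, mm9) was at 2.83, 2.91 and 3.03 FPKM without TGF-β2 in the NC, miR-31 inhibitor and miR-27 inhibitor transfections. With TGF-β2 it was at 71.1, 59.6 and 71.7 FPKM in the same order. The 3 treated libraries lay far above the 3 untreated ones, and the ratio of FPKM was 25.1, 20.5 and 23.7. The fitted rise was 4.12 (95% interval 3.95 to 4.29, limma adjusted p = 2.015e-05). Without TGF-β2, Itgb5 lay at the 15.4th percentile of the tested genes in the NC library, the lowest of the 4 β subunits tested. In bulk RNA, a change in RNA per cell and a change in the number of cells that express a gene cannot be told apart.

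The β3 subunit also pairs with αv, and the αvβ3 receptor is a marker of growing vessels. Itgb3 (chromosome 11, 104469314 to 104531785) was at 37.6, 43.3 and 41.6 FPKM without TGF-β2 and at 115.0, 115.7 and 127.6 with it. The groups did not overlap, and the rise was 1.53 ± 0.06 (SE of the fit; limma adjusted p = 9.478e-05). Their common partner Itgav (chromosome 2, 83564554 to 83647073) went from 29.1, 32.6 and 33.1 to 71.9, 61.7 and 66.3 FPKM. The lowest treated library was the one with the miR-31 inhibitor, still well above the highest untreated one. The rise of Itgav was 1.05 ± 0.08 (adjusted p = 0.0007472), with responses of 1.28, 0.90 and 0.98 in the 3 transfections.

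The β1 subunit has the most α partners and was the most abundant subunit in every library. Itgb1 (chromosome 8, 131209554 to 131257479) was at 228, 242 and 239 FPKM without TGF-β2 and at 370, 345 and 360 with it. It rose by 0.60 ± 0.05 (adjusted p = 0.0009943), with no overlap. The α5 subunit joins β1 in the main fibronectin receptor. Itga5 (chromosome 15, 103174718 to 103197179) was at 37.7, 46.0 and 43.1 FPKM without TGF-β2 and at 55.3, 58.5 and 62.8 with it. The groups were apart, with the NC library the lowest of each, and the rise was 0.47 ± 0.06 (adjusted p = 0.002753).

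Against this rise stood the 3 laminin receptors. Itga6 (chromosome 2, 71625140 to 71694815), which pairs with β1 or β4, was at 112.0, 118.2 and 96.2 FPKM without TGF-β2. With it, Itga6 was at 9.64, 11.9 and 10.5 FPKM, that is 0.0861, 0.101 and 0.109 of the untreated level. Every treated library was far below every untreated one. The 7 epithelial markers, of which 1 passed the filter, summed to 38.7 to 54.5 FPKM without TGF-β2 and 12.9 to 16.6 with it, nearly all Krt18, with Epcam and Krt5 listed at 0. Epithelial cells' part in the Itga6 value was not tested. The fitted difference of Itga6 was -3.23 (95% interval -3.42 to -3.05, adjusted p = 2.945e-05). The α7 subunit is best known from muscle, where it ties fibres to laminin. Itga7 was at 121.0, 119.8 and 117.1 FPKM without TGF-β2, the highest mean of the α subunits, and at 61.7, 62.2 and 63.4 with it. The 3 libraries of each state lay close together, and the difference was -0.92 ± 0.04 (adjusted p = 0.0001578). Itga3, the third laminin receptor, went from 42.9, 43.9 and 41.7 to 26.2, 24.4 and 26.5 FPKM (-0.72 ± 0.05, adjusted p = 0.0006023), again without overlap.

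Itgb2 encodes the β chain of leukocyte integrins. It was at 13.0, 11.7 and 13.1 FPKM without TGF-β2 and at 4.89, 3.34 and 4.96 with it, and it fell by 1.35 on the log2 scale (SE 0.07, adjusted p = 0.0002745). The miR-31 inhibitor library was the lowest of each state. The α chains that pair with Itgb2, namely Itgad, Itgal, Itgam and Itgax, reached at most 0.198 FPKM (Itgax). The summed level of 10 leukocyte and platelet markers was 187 to 225 FPKM without TGF-β2 and 112 to 142 with it, most of it Cd68 (105.1 to 211 FPKM), and 4 of the 10 passed the filter. Ptprc, Itgam and Itgal, which define leukocytes, were at most 0.0257, 0.0110 and 0.0196 FPKM. Pf4, a platelet gene of that list, was at 10.6 to 13.9 FPKM without TGF-β2 and at 3.20 to 4.14 with it. The part of such cells in the Itgb2 value was not tested.

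The other 2 tested α subunits did not pass. Itga1, a collagen receptor, was between 12.7 and 13.7 FPKM in all 6 libraries (-0.04, 95% interval -0.15 to 0.06). Itga1 shares its listed interval with Pelo, a gene inside it, at 10.3 to 15.6 FPKM, and how fragments were divided between them is not given in the sources used here. The same limit holds for Itga7, whose interval is shared with Mettl7b, and for Itga4, Tln2, Zyx, Actn4, Ilk and Parva, which also share theirs with other names. Itga4, which binds fibronectin and Vcam1, was between 6.92 and 8.67 FPKM, with responses of 0.15, -0.12 and 0.03. Itga2, a collagen receptor, was under the filter, at 0.325 to 0.430 FPKM without TGF-β2 and 0.652 to 0.744 with it. The other subunits under the filter, each with its highest value in FPKM, were Itga10 (0.310), Itga9 (0.169), Itga8 (0.0543), Itga11 (0.0216), Itgb4 (0.888), Itgb7 (0.159) and Itgb6 (0.0421). Itgb8 was listed at 0 in all 6 libraries, and a 0 in a table of estimates need not mean that the RNA is absent.

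Summed by ligand, a grouping from textbook knowledge, the α subunits changed their balance. The laminin class (Itga3, Itga6, Itga7) made up 75.6%, 73.7% and 72.3% of the summed FPKM of the 12 α subunits without TGF-β2, and 39.4%, 41.1% and 39.9% with it. The class that binds the RGD peptide motif (Itga5, Itga8, Itgav) went from 18.3%, 20.6% and 21.6% to 51.4%, 50.2% and 51.3%. In each transfection the largest class was laminin-binding without TGF-β2 and RGD-binding with it. The collagen class was at 13.3 to 14.3 summed FPKM in all 6 libraries. Summed over all 12, the α subunits went from 365, 382 and 353 FPKM to 248, 240 and 252.

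The β subunits together went the opposite way, from 282, 301 and 297 FPKM to 562, 524 and 565. Of that sum, Itgb1 made up 80.3% to 80.8% without TGF-β2 and 63.7% to 65.9% with it. The share of Itgb3 was 13.3% to 14.4% and then 20.5% to 22.6%, and that of Itgb5 about 1% (0.969% to 1.02%) and then 11.4% to 12.7%. These shares are of RNA, and subunit protein was not measured.

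**Figure D2:**
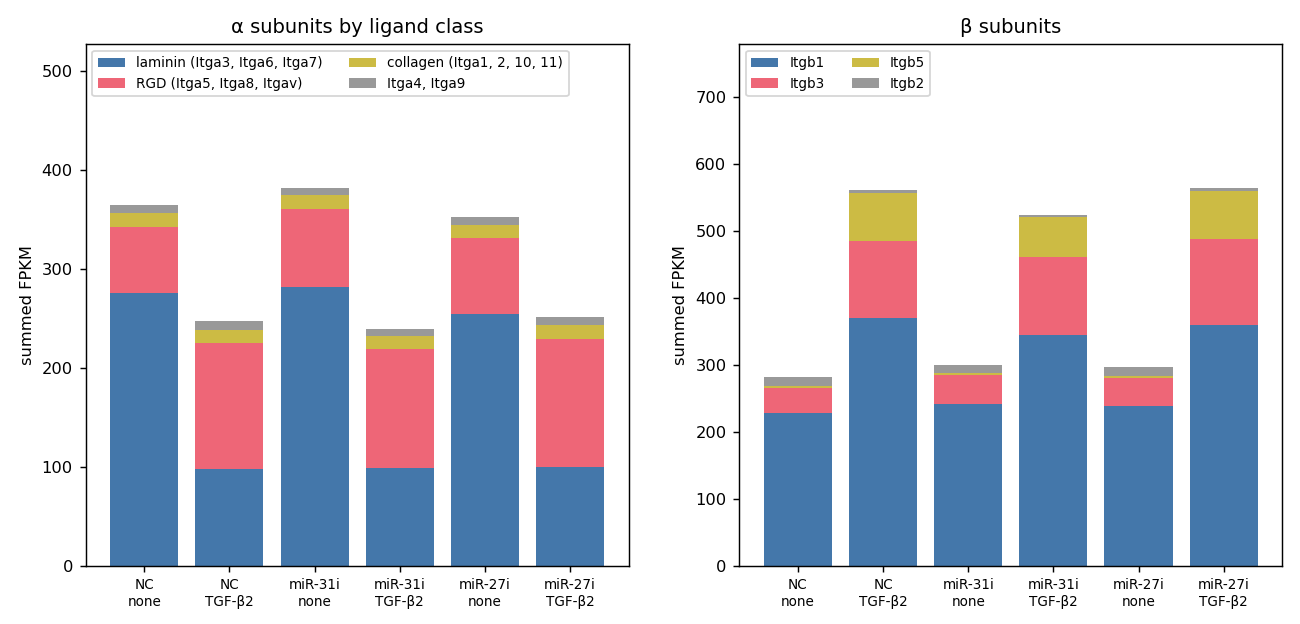
Summed FPKM in each library of the α subunits by ligand class (left) and of the 4 β subunits that passed the filter (right). NC, miR-31i and miR-27i are the transfections with the NC and with the inhibitors of miR-31 and of miR-27. The laminin class shrinks from 72.3% to 75.6% of the α sum to 39.4% to 41.1% with TGF-β2, and the β sum grows by the rise of Itgb1, Itgb3 and Itgb5.

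The order of the levels changed with it. Without TGF-β2 the α subunits ran Itga7 (119 ± 1.98 FPKM, SD, n = 3 transfections), Itga6 (109 ± 11.3), Itga3 (42.9 ± 1.11), Itga5 (42.2 ± 4.22) and Itgav (31.6 ± 2.17). Itga7 and Itga6 overlapped, as did Itga3 and Itga5. With TGF-β2 the order was Itgav (66.6 ± 5.07), Itga7 (62.4 ± 0.879) and Itga5 (58.9 ± 3.77), whose neighbours in the order overlapped, then Itga3 (25.7 ± 1.16), Itga1 and Itga6 (10.7 ± 1.15). Among the β subunits, Itgb5 (67.5 ± 6.83) passed Itgb2 (4.40 ± 0.915) to take the third place.

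Promoters are shown for Itgav and for Itgb5 and Itgb1, both of which can pair with it, because the RNA of all 3 rose. They are the 250 bases before and 50 after the RefSeq start (GRCm38.p6, plus strand), matched by symbol. Itgb3, which also pairs with Itgav and rose, had no promoter under its symbol, nor had Itga6 and Itga7, which fell, so these could not be examined. Capitals mark matches, on either strand, to a Smad box (CAGAC), a TEAD site (GGAATG), an AP-1 site (TGANTCA), a GC box (GGGCGG) or a CArG box. The windows are chr16:33829415-33829714, chr2:83724147-83724446 and chr8:128685404-128685703.
Itgb5: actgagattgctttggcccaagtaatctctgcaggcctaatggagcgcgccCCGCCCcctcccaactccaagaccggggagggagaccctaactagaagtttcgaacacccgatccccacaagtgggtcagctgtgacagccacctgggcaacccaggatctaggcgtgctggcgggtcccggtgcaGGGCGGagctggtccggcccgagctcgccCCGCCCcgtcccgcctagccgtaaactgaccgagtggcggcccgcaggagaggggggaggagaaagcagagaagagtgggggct
Itgav: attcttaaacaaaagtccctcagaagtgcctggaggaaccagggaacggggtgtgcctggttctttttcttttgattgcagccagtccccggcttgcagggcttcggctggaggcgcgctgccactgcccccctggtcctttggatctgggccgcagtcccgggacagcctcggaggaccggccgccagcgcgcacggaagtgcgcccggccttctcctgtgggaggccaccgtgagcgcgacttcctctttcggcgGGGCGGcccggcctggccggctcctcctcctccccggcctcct
Itgb1: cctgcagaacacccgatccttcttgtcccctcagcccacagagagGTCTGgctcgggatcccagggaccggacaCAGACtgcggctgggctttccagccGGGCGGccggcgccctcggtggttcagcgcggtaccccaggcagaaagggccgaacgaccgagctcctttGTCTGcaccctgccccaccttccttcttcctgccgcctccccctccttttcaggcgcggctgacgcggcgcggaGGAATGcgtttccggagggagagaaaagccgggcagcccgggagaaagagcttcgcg

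The Itgb5 window held 3 GC boxes and the Itgav window 1, with none of the other motifs. The Itgb1 window held 3 Smad boxes, 1 TEAD site and 1 GC box. Over the 40 windows of the 32 members that matched, a GC box was found in 62.5%, a Smad box in 45%, a TEAD site in 17.5%, an AP-1 site in 10% and a CArG box in 7.5%. Over all 32851 windows of the same length, the shares were 35.7%, 49.6%, 14.7%, 7.81% and 1.63%. That background includes genes that were not tested here and was not matched to the members for expression, so no trait of the members is read from it. The shares of the members rest on 25, 18, 7, 4 and 3 windows in that order, so the last ones are few. Some genes have several windows, and a match is a run of letters and not a measured binding site.

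Among the linkers between integrin and actin, genes of the same family had differences of different sign or size. Tln1 and Tln2 encode talins, which switch integrins on by binding the β tail. Tln2 went from 6.48, 8.03 and 7.09 to 12.5, 12.8 and 13.1 FPKM, a rise of 0.75 ± 0.06 (adjusted p = 0.000839). All 3 treated libraries lay above the untreated ones. Tln1, at 80.2 to 84.9 FPKM without TGF-β2, was at 70.4 to 72.4 with it (-0.21 ± 0.04, adjusted p = 0.01488), so it stayed the more abundant talin. A second name at its interval, mKIAA1027, was listed at 1.43 to 2.27 FPKM. The call was lost when an NC library (adjusted p = 0.0625) or a miR-27 inhibitor library (0.07215) was left out.

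Filamins crosslink actin and also bind β tails. Flna, the common filamin, went from 197, 187 and 187 to 315, 276 and 291 FPKM (0.63 ± 0.04, adjusted p = 0.0005529). Flnc, the filamin of muscle, moved the other way, from 72.6, 75.9 and 75.3 to 37.0, 38.6 and 39.5 FPKM (-0.94 ± 0.04, adjusted p = 0.0001242). Neither gene's groups overlapped, and the 3 responses of Flnc differed by only 0.04. The 8 smooth muscle and pericyte markers, of which 3 passed the filter, summed to 2.38 to 2.47 FPKM without TGF-β2 and 15.1 to 22.7 with it, mostly Acta2. Myh11 and Rgs5 were at most 0.0374 and 0.0143 FPKM, and the part of these cells in the filamin values was not tested.

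Tensins link integrin tails to actin, and α-actinins crosslink actin filaments. Tns3 rose from 28.3, 32.9 and 32.4 to 46.5, 52.2 and 54.0 FPKM (0.69 ± 0.04, adjusted p = 0.0003196), whereas Tns1 was at 9.72 to 12.4 FPKM throughout (-0.03, 95% interval -0.17 to 0.11). Actn1 rose from 50.8, 54.3 and 51.9 to 72.0, 64.8 and 72.6 FPKM (0.41 ± 0.06, adjusted p = 0.006056). Actn4, the other α-actinin of non-muscle cells, differed by -0.15 (95% interval -0.27 to -0.02) and did not pass (adjusted p = 0.06143), except with trend and robust moderation (0.03458). In each of these pairs the difference between paralogs was not itself tested.

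Smaller rises were those of Fermt2, a kindlin that helps talin, and of Vcl, vinculin. Fermt2 was at 22.0 to 24.4 FPKM without TGF-β2 and at 26.7 to 28.0 with it (0.24 ± 0.04, adjusted p = 0.01050). Vcl was at 52.3 to 55.5 and then at 58.7 to 66.0 FPKM (0.21 ± 0.05, adjusted p = 0.02057). Without an NC library the adjusted p was 0.07392 for Fermt2 and 0.1119 for Vcl, and without a miR-27 inhibitor library 0.05311 and 0.1124. Zyx, which encodes the tension-sensitive protein zyxin, was at 19.4 to 21.7 FPKM in all 6 libraries (0.04, 95% interval -0.07 to 0.14). Fermt3, the kindlin of blood cells, was at most 0.429 FPKM.

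In the complex around integrin-linked kinase the differences were small. Ilk, Lims1 and Parva encode the kinase-like scaffold, PINCH and α-parvin, which form a fixed complex. Parva rose by 0.29 ± 0.05 (adjusted p = 0.007187), from 50.2 to 51.5 FPKM up to 59.0 to 64.7. That call was lost without either NC library (adjusted p = 0.05325). Ilk differed by 0.11 and Lims1 by 0.12, with adjusted p of 0.06203 and 0.06912, although their treated libraries lay above the untreated ones. Ilk passed with no filter, with a filter at 5 FPKM, with rescaled libraries and with trend and robust moderation. Lims1 passed in the last 2 of these. Parvb was at 13.1 to 16.3 FPKM without TGF-β2 and 12.3 to 13.9 with it (-0.18, adjusted p = 0.09426), and Lims2 was at most 0.112 FPKM.

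Ptk2 encodes focal adhesion kinase. It was at 65.2, 66.1 and 66.0 FPKM without TGF-β2 and at 67.0, 66.3 and 67.5 with it, a difference of 0.03 (95% interval -0.08 to 0.13). A second name at the same interval, FAK, was listed at 10.1 to 14.8 FPKM, and both together made 75.2 to 80.6 FPKM without TGF-β2 and 80.5 to 82.4 with it. Src, which phosphorylates the kinase's partners, fell from 19.9, 22.1 and 20.3 to 15.6, 17.9 and 17.4 FPKM (-0.28 ± 0.04, adjusted p = 0.006680). The groups lay apart, but the call was lost without either NC library (adjusted p = 0.05188).

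Pxn, the scaffold paxillin, went from 64.4 to 70.1 FPKM down to 54.0 to 62.0 (-0.18 ± 0.04, adjusted p = 0.02477). The call was lost without an NC library (adjusted p = 0.1439) or a miR-27 inhibitor library (0.07017), and without the inhibitor term (0.05855). Bcar1, which encodes p130Cas, was at 20.9, 21.6 and 21.7 FPKM and then at 21.3, 27.2 and 24.5 (0.17, adjusted p = 0.08575), and the groups overlapped. Cav1, the caveola protein abundant in endothelium, was the highest of all members, at 496 to 510 FPKM without TGF-β2 and 549 to 587 with it (0.17 ± 0.05, adjusted p = 0.03558). Cav1 did not pass without an NC library (adjusted p = 0.1324), without a miR-27 inhibitor library (0.1875), or with no filter (0.05911).

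**Figure D3:**
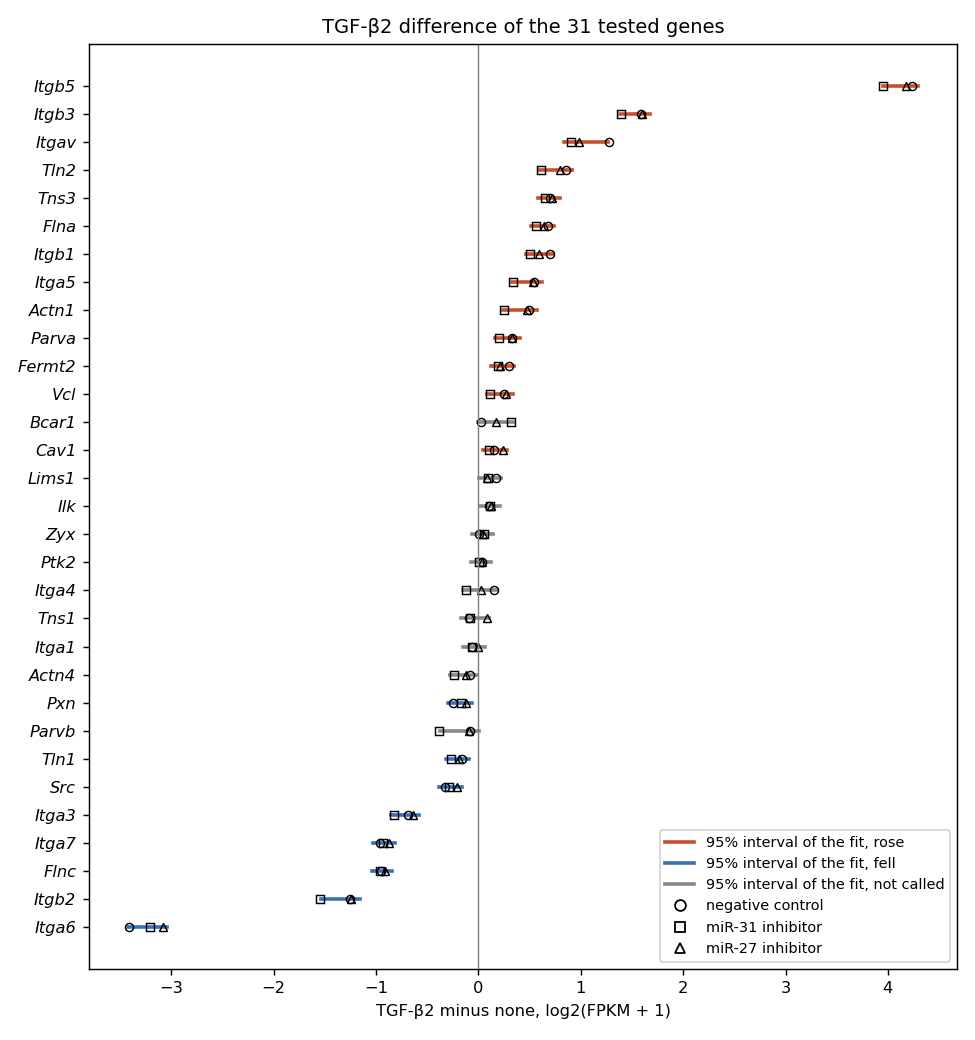
Difference with TGF-β2 on the log2(FPKM + 1) scale for the 31 tested genes, in order of the fitted value. Bars are the 95% interval of the limma fit over 6 libraries, coloured by call, and open symbols are the 3 transfections. Itgb5 (4.12) and Itga6 (-3.23) stand at the ends, and the linkers and kinases lie between -0.94 and 0.75.

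By size, the members that moved far were all receptor subunits. Of the 31, a difference of at least 1 was reached by 3 upward and 2 downward in the NC transfection, where 2.62% and 2.12% of all genes tested did so. With the miR-31 inhibitor it was 2 and 2 (2.65% and 2.43% of all genes), and with the miR-27 inhibitor 2 and 2 (2.43% and 2.04%). They were Itgb5, Itgb3, Itga6 and Itgb2 throughout, and Itgav with the NC. The 3 treated and 3 untreated libraries did not overlap for 24 of the 31 members, beside 58.4% of all genes tested. The sign was the same in the 3 transfections for 29 members, beside 73.3% of all genes. The lowest level of a tested member in any library was 2.83 FPKM, so none passed the filter through a single state.

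Genes around the members were read from lists of the same pathway. Of 30 tested integrin ligands, 19 rose and 8 fell, with a median of 0.66. The 4 largest were Vwf (3.93), Ctgf (3.77) and Col3a1 (3.67), which rose, and Nov (-5.12), which fell. Without TGF-β2, Vwf was at 0.372 to 0.426 FPKM and Col3a1 at 0.179 to 0.291. Both passed the filter only through their treated libraries, so their rises, counted among the 19, are tied to the filter. Fn1, the ligand of α5β1, rose from 22.8, 31.1 and 31.1 to 202, 210 and 218 FPKM (2.86 ± 0.08, adjusted p = 5.382e-05). Vtn, the vitronectin gene, was at most 0.0141 FPKM. Of the laminin chains, Lama4 rose by 1.05 and Lamb1 by 1.34, and Lama5 fell by 0.61. The 6 fibroblast markers, of which 1 passed the filter, summed to 1.87 to 2.51 FPKM without TGF-β2 and 15.7 to 19.8 with it, nearly all Pdgfra. Tcf21 was listed at 0, Lum was at most 0.0111 FPKM, and the part of such cells in the ligand values was not tested. Fn1, Vtn and the laminin chains were named after their values were seen.

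Of 27 tested activators, inhibitors and lateral partners of integrins, 6 rose and 13 fell, with a median of -0.07. The largest were falls of Plaur (-1.88), the urokinase receptor, Dab2 (-1.24), an adaptor that removes integrins from the surface, Rasip1 (-1.23) and Cd82 (-1.12), a tetraspanin. Of 36 other adaptors and actin linkers, 12 rose and 15 fell, with a median of -0.09. The largest changes there were rises. Nedd9, the Cas family relative of Bcar1, went from 5.23, 4.62 and 5.13 to 38.9, 32.7 and 35.4 FPKM (2.61 ± 0.04, adjusted p = 2.015e-05). Pdlim1 (2.28), Fblim1 (1.58), which encodes a filamin partner, and Pdlim7 (1.24) followed.

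Of 47 other kinases, GTPases and regulators of focal adhesions, 11 rose and 20 fell, with a median of -0.09. Rhob rose by 1.52, and Vav3 (-1.34), Arhgap26 (-1.19) and Arhgef7 (-1.14), which encodes β-PIX, fell. Arhgap26 was at 2.02 to 2.35 FPKM without TGF-β2 and 0.351 to 0.402 with it, so it passed the filter only through its untreated libraries. Only 1 of 7 other integrin subunit genes was tested, Itga2b, the platelet α subunit, which fell by 0.59 from 2.20 to 2.34 FPKM down to 1.10 to 1.19. All these counts stand beside 22.7% of all genes that rose and 27.5% that fell.

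With the miR-31 inhibitor, 0 of 31 members passed limma's test against the NC, and 0.0339% of all genes tested did. At an unadjusted p under 0.05 there were 6 members (Itgb2, Tns1, Tns3, Src, Pxn and Actn4), beside 2135 of 11816 genes or 18.1%. With the miR-27 inhibitor it was 0 members (0.00846% of all genes passed) and 4 unadjusted (Itga5, Tns1, Tns3 and Actn4), beside 1470 genes or 12.4% unadjusted. Between the inhibitors it was 0 (0.0169%) and 2 unadjusted (Itgb2 and Itga6), beside 403 genes or 3.41%. Both inhibitors were compared with the same NC libraries. No member differed by 1 or more from the NC with either inhibitor in either state, where 0.262% and 0.686% of all genes did so with the miR-31 inhibitor (without and with TGF-β2) and 0.296% and 0.195% with the miR-27 inhibitor. A p that misses the threshold does not show that levels were the same. The intervals are per gene and take the inhibitor's difference as equal with and without TGF-β2. A difference found in 1 state only can therefore lie outside them.

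Itga5 is a reported miR-31 target, and its 3′ UTR holds the site printed above. Itga5 was higher with the miR-31 inhibitor in both states, at 46.0 against 37.7 FPKM and 58.5 against 55.3. The fitted difference was 0.18 (95% interval -0.0002 to 0.36, adjusted p = 0.2771). With the miR-27 inhibitor, compared with the same NC libraries, it was above by 0.19 (0.005 to 0.37, adjusted p = 0.3934), and its 3′ UTR also holds a match to the miR-27 seed. The NC library was the lowest of each state, and the difference between the inhibitors was -0.005 (adjusted p = 0.9932).

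Other genes reported as miR-31 targets in this machinery showed no common direction. Itgav differed by -0.03 (95% interval -0.29 to 0.23), Itgb3 by 0.10 (-0.07 to 0.28), Rhoa, the GTPase that drives contraction, by -0.04 (-0.21 to 0.13) and Rdx, the actin linker radixin, by -0.05 (-0.18 to 0.07). The sign of Itgav turned with the library left out. Itga2 was under the filter. No member among Itgav, Itgb3 and Itga2 had a 7-base match to the miR-31 seed in the 3′ UTR searched, which says only that these letters are not in that gene model.

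Over the 31 tested members, a miR-31 seed match was found in 5, or 16.1% (Itga4, Itga5, Itgb2, Tns1, Cav1), beside 13.2% of 9545 tested genes with a 3′ UTR. The median difference with the miR-31 inhibitor was 0.01 in these 5 and 0.03 in the other members, and 0.02 and 0.01 in all genes with and without a match. For miR-27 the match was also in 5 members, beside 17.8% of the genes, and the medians with the miR-27 inhibitor were 0.07 and 0.03 in members with and without it, and 0.02 and 0.004 in all genes.

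The 5 genes with a miR-31 match differed in sign. Tns1 was higher with the miR-31 inhibitor in both states, at 12.4 against 10.5 FPKM and 11.7 against 9.72 (0.24, 95% interval 0.07 to 0.40, adjusted p = 0.2345), and its difference with the miR-27 inhibitor was 0.22, from the same NC libraries. Itgb2 was lower in both states, by -0.14 and -0.44 (-0.29 fitted, adjusted p = 0.2415). It was the single member that passed under any alternative here, at -0.44 (adjusted p = 0.02685) without the untreated miR-31 inhibitor library, when 1137 of all genes passed too. Cav1 differed by 0.01 and Itga4 by -0.15. Tns3 differed from the shared NC by 0.19 and 0.20 with the miR-31 and miR-27 inhibitors, and Actn4 by 0.16 and 0.17.

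**Figure D4:**
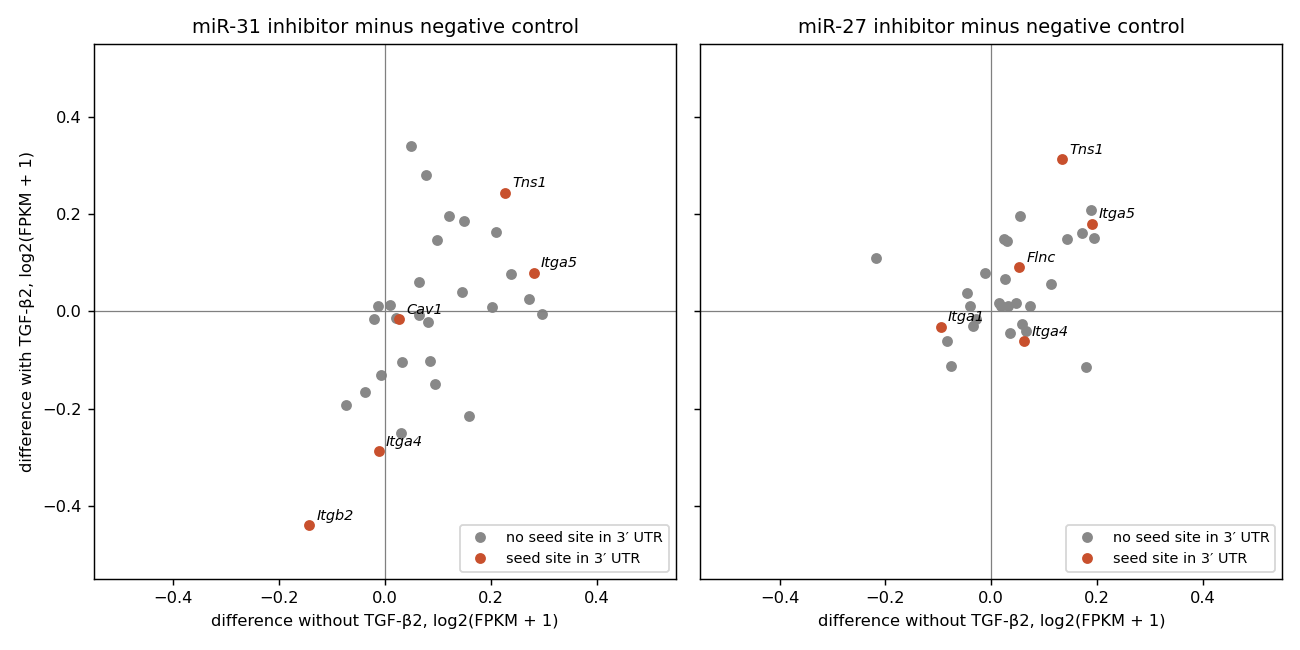
Difference from the negative control on the log2(FPKM + 1) scale without TGF-β2 (horizontal) and with it (vertical) for the 31 tested genes, with the miR-31 inhibitor (left) and the miR-27 inhibitor (right). Genes with a 7-base seed match in the 3′ UTR are coloured and named. All points lie between -0.44 and 0.34. On the left the coloured Itgb2 is the lowest on both axes (-0.14 and -0.44), and on the right the coloured Tns1 is the highest with TGF-β2 (0.31).

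The response to TGF-β2 kept its direction with either inhibitor for all members that were called. The call came from a fit to the same 3 responses, so this agreement was largely set by it. No conclusion about the inhibitors is drawn from it. The responses differed most between transfections for Itgav (1.28, 0.90 and 0.98 with NC, miR-31 and miR-27 inhibitor) and Itga6 (-3.41, -3.21 and -3.08). For Itgb2 they were -1.25, -1.55 and -1.25. The miR-31 inhibitor gave the smallest rise of the 3 for Itgb5, Itgb3, Itgav, Itgb1, Itga5, Tln2, Tns3, Flna, Actn1, Parva, Fermt2, Vcl and Cav1, which are all 13 members that rose. Among all 2677 genes that rose, this held for 41.1%. The pattern was noticed after the values were seen, and all 13 genes come from the same libraries, so no test was made of it. The rise of Itgb5 with the miR-31 inhibitor was 3.95, beside 4.23 and 4.17. With a single library per condition, the dependence of a response on the inhibitor was not tested. The miR-31 inhibitor library with TGF-β2 also had the most genes overall that differed by 1 or more from the NC (0.686%), and the part of that in the smaller rises was not tested.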

How the data were processed

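Ribosomal RNA was removed and strand-specific libraries were sequenced, per the labels' protocols. The authors deposited 1 table of FPKM values per gene for the 6 libraries. TopHat2 2.0.9, Cufflinks 2.1.1 and the mm9 build are listed, without their settings, in the submitters' processing notes. The annotation and the counting options are not given in the sources used here. The table holds no counts, so no count test was run and the depth is unknown.

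From the table, log2(FPKM + 1) was fitted with limma 3.58.1 (R 4.3.3) where the mean FPKM of a gene reached 1, with inhibitor and TGF-β2 as additive terms. This left 2 residual degrees of freedom. P-values were two-sided and adjusted by Benjamini-Hochberg over all 11816 genes, with a threshold of 0.05. Differences are on that log2 scale and understate the change of low genes. The inhibitor term pairs the 2 libraries of each transfection, as the labels give them. The fit was run on data simulated from each gene's mean, with residual spreads shuffled between genes and no inhibitor difference. TGF-β2 differences were planted in 200 genes, all above a set mean level, whereas 50.2% of genes were called in the data. Planted TGF-β2 differences of 0.5, 1 and 2 were recovered in 70.1%, 92.5% and 98.5% of genes, and 2 of 11616 unchanged genes were called. Smaller differences, and responses that depend on the inhibitor, were not simulated. These rates hold for that setting only and do not give the error rates of the real fit.

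All members were named. Of each other list the 4 genes with the largest TGF-β2 difference were named, and every reported miR-31 target. The members, lists and ligand classes were chosen with earlier results of these data known. Seed matches were searched in the longest 3′ UTR of each gene. Alternatives changed the pseudocount, filter, scaling, moderation, the inhibitor term and the libraries used.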

Additional observations from a re-analysis of the deposited data

Results flagged for a closer look

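Itga4 and Tns1 had TGF-β2 differences of opposite sign in different transfections, and these contrasts were not tested because each rests on 1 library against 1. In the order NC, miR-31 inhibitor, miR-27 inhibitor, Itga4 differed by 0.15, -0.12 and 0.03. Tns1 differed by -0.09, -0.08 and 0.08 in that order. Neither gene passed the test of TGF-β2.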

How the results depend on the processing

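Of the 21 members called with TGF-β2, 14 passed under every alternative run, 7 were lost when a library was left out, and 2 of those (Pxn and Cav1) also under another setting. Leaving out 1 of a transfection's 2 libraries removes that transfection from the TGF-β2 estimate, so both give the same fit. The number that rose ranged from 9 to 13 over these fits and the number that fell from 5 to 8. Over the other settings 13 to 15 rose and 7 to 9 fell. Over all genes the count was 3566 (1640 rose, 1926 fell) without an NC library, 3917 (2090 fell) without a miR-27 inhibitor library and 6087 (2815 rose, 3272 fell) without a miR-31 inhibitor library. With no replicate block, that is without the inhibitor term that pairs the libraries, 13 members rose and 7 fell, with Pxn lost (adjusted p = 0.05855). The TGF-β2 difference of Itga4 ranged from -0.047 without an NC library to 0.091 without a miR-31 inhibitor library, and that of Tns1 from -0.087 without a miR-27 inhibitor library to 0.0029 without an NC library. For the miR-31 inhibitor, Itgav ranged from -0.196 without the untreated NC library to 0.14 without the treated one, and was 0.08 without the treated miR-31 inhibitor library. Without the untreated miR-31 inhibitor library, 1 member (Itgb2) passed against the NC, where 1137 of all genes passed (9.62%), and 1 against the miR-27 inhibitor, where 208 did (1.76%). Without any other single library it was 0 in both. The causes were not tested. The depth behind the FPKM is unknown, so counting error could not be set against these differences.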
